A study of Mus musculus with 18 samples.

Results

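Surface ectoderm is the sheet of epithelium that covers the embryo once the neural plate has folded. It gives rise to the epidermis and the placodes of the sense organs. Its identity rests on transcription factors such as Trp63, Tfap2a and Grhl3 and on the epithelial adhesion protein Epcam. It secretes Wnt and BMP ligands, and Wnt6 is one of them. Dnmt1 copies DNA methylation onto the new strand at replication, whereas Dnmt3a and Dnmt3b place it on unmethylated DNA.

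Surface ectoderm cells were picked out of 18 single-cell RNA-seq libraries of E8.5 mouse embryos as barcodes with at least 3000 mouse UMIs (counted molecules), at least 1 UMI of 4 or more of the 5 genes Trp63, Wnt6, Grhl3, Tfap2a and Epcam, and no UMI of Elf5 (a factor of trophoblast and some epithelia) or Foxa2 (an endoderm factor). The members were thus selected on measured counts of these 7 genes, whose levels are given below as a description. The rule kept 1495 members of 105556 barcodes at that depth, out of 162336 deposited. There were 462 members in 7 WT libraries (20 to 135 each), 84 in 3 Dnmt1 KO libraries (36, 21 and 27), 462 in 4 Dnmt3a KO libraries (38 to 188) and 487 in 4 Dnmt3b KO libraries (99 to 153). All embryos carried the 129S4/SvJae background, the mutants were constitutive nulls of a single gene, labelled Dnmt1 null, Dnmt3a null and Dnmt3b null, and the matching wildtypes came from the same kind of heterozygous cross, although the labels do not tie a WT embryo to one of the 3 crosses.

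Some features of the libraries bear on every comparison. Dnmt3b KO 1 and Dnmt3b KO 2 shared 7493 barcodes of at least 3000 UMIs, 85.7% and 85.9% of those of each library, and a shared barcode held matching profiles (median r = 0.620 over 500 variable genes, against -0.02 for shifted barcodes), so they were averaged into 1 sample and the 1495 members are 1468 once the 27 barcodes that were members in both are counted once. These 27 are few of the 179 barcodes that were members in either library, so the rule seldom picked the same barcode in both. The other Dnmt3b KO embryos are 11 and 12. By Y-linked transcripts the 3 Dnmt1 KO and 4 Dnmt3a KO embryos were male, as were WT 2 and the Dnmt3b KO embryos other than 12, while the remaining 6 WT embryos and Dnmt3b KO 12 were female. In the Dnmt1 and Dnmt3a comparisons genotype and sex therefore differ together but for WT 2, and a fit with the summed Y-linked level as a covariate is given where it ends a call. Members were deeper in Dnmt1 KO (library medians of 48652 to 67963 UMIs) than in Dnmt3b KO (21028 to 32343), with WT at 31177 to 63568. From cell type proportions, in these samples and a published data set together, the study inferred that Dnmt1 KO embryos were slightly delayed. The part of stage in the Dnmt1 KO differences below was not tested.

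The targeted transcript was checked first. Dnmt1 ranged from 114 to 160 CPM (UMIs of the gene per 1000000 UMIs summed over the members of an embryo) in WT, and was 15.6, 17.2 and 15.4 CPM in Dnmt1 KO 1, 2 and 3, the order in which Dnmt1 KO values are given throughout. Dnmt3a ranged from 11.1 to 20.01 CPM in WT and was 6.43, 10.2, 6.33 and 8.89 CPM in Dnmt3a KO 1, 2, 13 and 14, below every WT embryo but not past the test (log2 fold change -1.20 ± 0.28 SE, adjusted p = 0.0749). Dnmt3b transcripts were still counted in Dnmt3b KO, at 128 and 116 CPM in embryos 11 and 12 and 110 and 123 CPM in the averaged pair, against 92.4 to 181 CPM in WT. Because the libraries count tags at the 3′ end, that level says nothing about the deleted part of the gene.

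The sequences below are promoters of genes called higher in at least 2 of the 3 KO groups. CpGs, the sites that DNA methylation marks, are in capitals, and no methylation was measured in these libraries. The 6 of smallest adjusted p in Dnmt3b KO with a RefSeq entry (GRCm38.p6) are shown, each from 250 bases before to 50 after the start of the gene, 5′ to 3′ on the strand of the gene. Rhox4e lies at chrX:37557162-37557461 (plus strand, 10 CpG), Rpl39l at chr16:10169978-10170277 (plus, 17 CpG), Gm9 at chrX:37210992-37211291 (minus, 5 CpG), Cyct at chr2:76360404-76360703 (minus, 8 CpG), Fkbp6 at chr5:135349995-135350294 (minus, 21 CpG) and Gm4779 at chrX:101794396-101794695 (minus, 22 CpG). AU022751 also belonged to this set.
Rhox4e: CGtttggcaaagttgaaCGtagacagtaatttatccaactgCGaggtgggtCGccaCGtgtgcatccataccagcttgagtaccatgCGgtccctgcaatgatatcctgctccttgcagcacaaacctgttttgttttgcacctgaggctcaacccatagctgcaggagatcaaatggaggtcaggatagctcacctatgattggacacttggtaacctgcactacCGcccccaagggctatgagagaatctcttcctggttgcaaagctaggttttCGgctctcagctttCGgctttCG
Rpl39l: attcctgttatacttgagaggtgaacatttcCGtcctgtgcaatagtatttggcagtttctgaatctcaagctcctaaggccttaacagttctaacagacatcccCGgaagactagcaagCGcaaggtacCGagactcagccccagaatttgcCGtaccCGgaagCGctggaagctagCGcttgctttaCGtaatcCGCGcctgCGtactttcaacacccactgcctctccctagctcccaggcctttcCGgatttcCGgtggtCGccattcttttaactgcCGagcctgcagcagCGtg
Gm9: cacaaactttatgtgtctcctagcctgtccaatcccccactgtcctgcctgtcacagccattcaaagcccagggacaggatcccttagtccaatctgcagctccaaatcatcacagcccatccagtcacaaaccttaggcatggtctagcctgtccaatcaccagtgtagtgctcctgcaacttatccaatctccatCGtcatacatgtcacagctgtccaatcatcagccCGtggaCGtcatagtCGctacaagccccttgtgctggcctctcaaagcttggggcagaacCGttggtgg
Cyct: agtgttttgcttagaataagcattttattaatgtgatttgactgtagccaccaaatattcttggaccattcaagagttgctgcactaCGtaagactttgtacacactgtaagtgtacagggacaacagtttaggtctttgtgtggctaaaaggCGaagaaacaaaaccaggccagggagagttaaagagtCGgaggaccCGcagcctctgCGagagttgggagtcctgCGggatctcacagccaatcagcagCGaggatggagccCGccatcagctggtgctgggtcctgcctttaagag
Fkbp6: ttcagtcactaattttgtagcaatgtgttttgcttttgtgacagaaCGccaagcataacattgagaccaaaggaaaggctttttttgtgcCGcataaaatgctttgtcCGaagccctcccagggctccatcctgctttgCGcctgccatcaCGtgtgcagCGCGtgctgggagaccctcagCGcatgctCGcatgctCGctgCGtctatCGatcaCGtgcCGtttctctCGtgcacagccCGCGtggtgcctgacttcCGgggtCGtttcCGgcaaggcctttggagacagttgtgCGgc
Gm4779: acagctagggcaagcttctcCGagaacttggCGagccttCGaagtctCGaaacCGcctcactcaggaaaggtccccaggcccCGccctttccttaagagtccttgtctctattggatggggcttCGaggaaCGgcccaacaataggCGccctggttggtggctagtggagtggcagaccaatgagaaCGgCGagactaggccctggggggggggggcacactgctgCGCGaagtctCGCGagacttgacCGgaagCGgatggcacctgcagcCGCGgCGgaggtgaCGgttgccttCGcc

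The 52 genes of that set with a promoter entry had a median of 11 CpG in the window, against 22 over the 8595 tested genes with an entry and 7 over all 27025 promoters. The palindromic E-box CACGTG, searched as those letters and therefore identical on both strands, occurred in 23.08% of the 52 promoters, in 10.7% of the tested genes and in 7.241% of all promoters. For the 188 promoters of genes called higher in Dnmt1 KO the share was 11.7%, near that of the tested genes. It was present 2 times in the Fkbp6 window and 1 time in that of Rhox4e. The 133 promoters of genes called lower in Dnmt1 KO had a median of 21 CpG and held CACGTG in 9.023% of cases. These are matches of letters, not measured binding.

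In WT embryos the members were an epithelial population, going by markers the rule did not use. The 42 other surface ectoderm and epidermal genes summed to 2173 to 4211 CPM in members and to 1177 to 1409 CPM in the other cells of the same embryos. Krt8 and Krt18, the keratin pair of simple epithelia, stood at 719 ± 183 and 668 ± 141 CPM (SD, n = 7) in members, against 312 ± 19.9 and 355 ± 21.9 CPM elsewhere. Sfn, an epidermal adaptor protein, showed a sharper contrast, with 114 ± 30.9 CPM in members and 5.11 ± 0.61 CPM in other cells. After each cell was thinned to 10000 UMIs, 51.2% of 449 WT members held a Sfn UMI, against 2.98% of other WT cells. Of 5224 erythroid barcodes pooled over all groups 0.287% did, the background level. These values are descriptions, since the cells were selected as epithelium.

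By summed level, though not for every gene, the label held less well in Dnmt1 KO. The same 42 genes summed to 1683 to 2756 CPM over the 3 Dnmt1 KO libraries (median 2270), overlapping the 1490 to 2383 CPM of their own other cells. The other cells of WT were lower, at 1177 to 1409 CPM. Krt8 had 330 ± 152 CPM in Dnmt1 KO members against 439 ± 54.7 CPM elsewhere. Of the 37 listed genes that were tested, 26 had a negative and 11 a positive log2 fold change in Dnmt1 KO members against WT. In Dnmt3a KO (3821 to 4122 CPM) and Dnmt3b KO (3443 to 4161 CPM) members lay far above their other cells (1244 to 1719 CPM). Markers of other lineages were also present in WT members. Gut and yolk sac endoderm markers summed to 19.5 to 209 CPM, against 1904 to 6055 CPM in other cells, and the 8 erythroid markers to 36.1 to 2931 CPM against 3097 to 37693 CPM. The 14 trophoblast markers, among them Cdx2, which posterior cells also express, reached 166 to 418 CPM in WT members and 262 to 518 CPM in Dnmt1 KO members, while other cells held 142 to 193 and 266 to 665 CPM. The part of these cells in the results below was not tested.

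Members just inside and just outside the threshold differed in degree. Of the 1495 members, 1225 held exactly 4 marker genes and 270 all 5, while 2648 barcodes with exactly 3 lay outside. Sfn in WT was 32.8 ± 11.9 CPM at 3 markers, 98.2 ± 38.8 at 4 and 157 ± 50.6 at 5, whereas Krt8 (645, 724 and 710 CPM) and Krt19 (79.7, 77.4 and 64.3 CPM) were level across the threshold. A further 654 barcodes met the marker count but held Elf5 or Foxa2. In WT these excluded barcodes had Krt8 at 865 ± 327 CPM, Sfn at 144 ± 44.8 CPM and Ascl2, a trophoblast factor, at 2.20 ± 1.59 CPM, with Ascl2 at 3.94 ± 3.82 CPM in members. In Dnmt1 KO Ascl2 was 61.0 ± 69.8 CPM and Plac1, a placental gene, 53.6 ± 43.7 CPM in the excluded barcodes, against 1.12 ± 1.31 and 10.7 ± 4.35 CPM in members.

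The share of members is the part of the barcodes of an embryo that met the rule, not a number of cells. It also falls where the marker genes fall, so a change in cells and one in marker levels cannot be told apart. Detection of Elf5 or Foxa2 lowers it too. These 2 genes set aside 23.1% to 42.5% of the barcodes that met the marker count in WT libraries (median 38.1%). In Dnmt1 KO it was 16.3% to 44.7% (20.6%), in Dnmt3a KO 25.65% to 44.9% (32.0%) and in Dnmt3b KO 15.2% to 28.8% (23.55%). Members made up 1.45 ± 0.49% of WT barcodes (SD, n = 7). The Dnmt1 KO share was 1.39 ± 0.89% (n = 3), that of Dnmt3a KO 1.59 ± 1.07% (n = 4) and that of Dnmt3b KO 1.63 ± 0.49% (n = 3). A barcode of more UMIs meets the rule more easily, so the comparison was made after thinning every barcode to 3000 UMIs, which left 15 WT members (0.0433 ± 0.0319%) and 3 of Dnmt1 KO (0.0463 ± 0.0176%). There were 14 left of Dnmt3a KO (0.0510 ± 0.0609%) and 26 of Dnmt3b KO (0.0644 ± 0.0395%). No difference passed a two-sided exact permutation test (adjusted p = 0.558 for each of 3 comparisons). Thinning to 10000 UMIs kept more cells, and there the share was 0.688 ± 0.310% in WT and 0.341 ± 0.208% in Dnmt1 KO, again not past the exact permutation test (p = 0.1, adjusted p = 0.3). The plot by library shows that embryos of 1 group spread widely, with Dnmt3a KO 2 at 0.391% and Dnmt3a KO 14 at 2.90% before thinning.

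**Figure D1:**
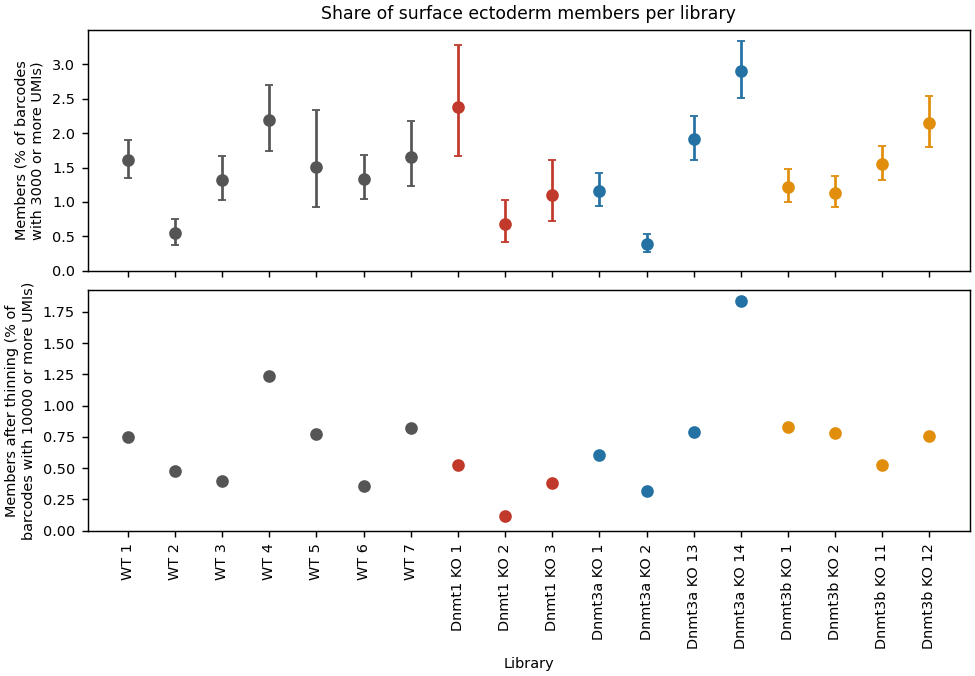
Share of surface ectoderm members in each of the 18 libraries, in percent of barcodes with at least 3000 UMIs (top, bars are exact 95% binomial intervals, counting error only) and, after thinning, in percent of barcodes with at least 10000 UMIs (bottom). WT libraries run from 0.546% to 2.18% in the top panel, and each KO group overlaps them.

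Of the 11030 genes tested across embryos with edgeR, 425 passed an adjusted p under 0.01 and a 2-fold change in Dnmt1 KO members (3.85%), 250 higher (2.27%) and 175 lower (1.59%). The lower calls were 98, 113 and 96 without Dnmt1 KO 1, 2 and 3, and the higher calls 193, 217 and 202. In Dnmt3b KO 65 passed (0.589%), 63 of them higher, and in Dnmt3a KO 9 passed (0.0816%), all higher. The 3 comparisons share the WT embryos, and 58 genes were called higher in both Dnmt1 KO and Dnmt3b KO and 7 in all 3. In Dnmt1 KO 41 of the higher genes lay on the X and 4 on the Y chromosome, and 159 of the 250 higher and 102 of the 175 lower calls were kept with the Y-linked covariate. Counted by embryos alone, 4.71% of the tested genes had every Dnmt1 KO embryo above every WT embryo and 12.5% every one below, against 1.31% and 0.345% in Dnmt3a KO and 2.96% and 1.01% in Dnmt3b KO. The plot of list calls sets the groups of genes described next side by side.

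**Figure D2:**
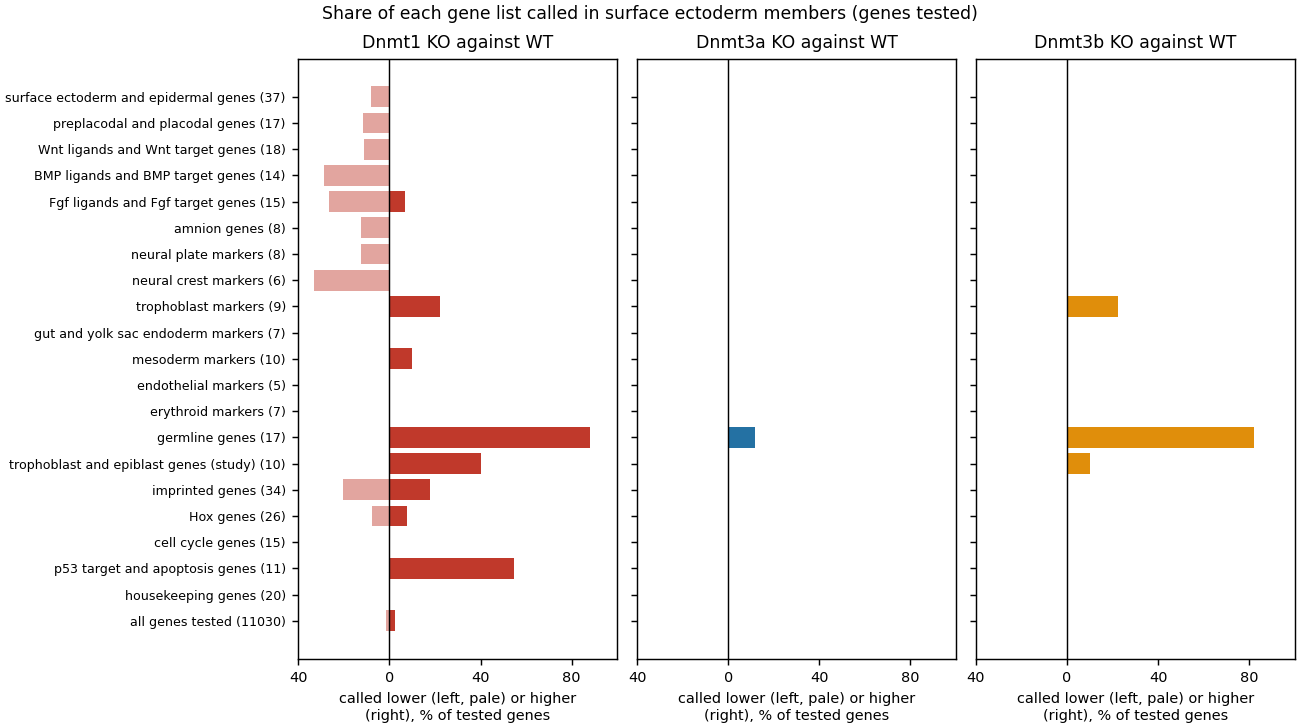
Percent of the tested genes of each list called higher (right, full colour) or lower (left, pale) than WT in surface ectoderm members, with the number of genes tested in brackets and all 11030 genes in the last line. The germline list has the longest bars in Dnmt1 KO (15 of 17) and Dnmt3b KO (14 of 17), and bars to the left are present in Dnmt1 KO and absent for the lists in the other KO groups. A gene high in a KO group alone can pass the filter on low counts, so the germline bars are a description.

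Among the genes that chose the members, the Dnmt1 KO embryos were low for 3, given without a test. Trp63, the master factor of stratified epidermis, ranged from 13.9 to 56.9 CPM in WT (median 31.7) and was 13.3, 10.5 and 4.62 CPM in Dnmt1 KO. Wnt6, a ligand of the dorsal ectoderm, ranged from 184 to 589 CPM (median 360) and was 125, 160 and 65.6 CPM. Tfap2a ranged from 62.4 to 88.95 CPM and was 59.8, 46.0 and 53.3 CPM. For these 3 the groups did not overlap. Grhl3 (28.1, 27.8 and 30.8 CPM against 16.7 to 41.7 in WT) lay within the WT range. So did Epcam (513, 561 and 435 CPM against 383 to 626). Dnmt3a KO and Dnmt3b KO overlapped WT for all 5. The cells were chosen on counts of these 5 genes, so the rate among all tested genes is no measure for them. A deeper barcode can meet the rule at a lower CPM. Library medians of member depth were 48652 to 67963 UMIs in Dnmt1 KO and 31177 to 63568 in WT. The part of depth in the low levels was not tested.

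Of 37 epidermal genes outside the rule that were tested, 3 were called lower in Dnmt1 KO (background 1.59%), none higher, and the list median was -0.31 on the log2 scale, against 0.00 over all genes, while in the other cells of the same embryos the list median was 0.57. Between members and other cells, 12 of the 37 had a called difference with the lower log2 fold change in members (background 1.12%). The rise in other cells enters these differences, and the part of the makeup of those cells was not tested. None was called in Dnmt3a KO (median 0.23, 9 genes at an unadjusted p under 0.05) or Dnmt3b KO (median 0.14, 7 genes) by edgeR, nor by DESeq2.

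Tfap2b, a partner of Tfap2a, ranged from 6.09 to 19.3 CPM in WT and had no count in the 84 Dnmt1 KO members, at least 21.1-fold lower with a floor of 3 counts over the group (adjusted p = 0.00152). The erythroid background, pooled over all groups and with few barcodes from Dnmt1 KO, was 0.134%. No Dnmt1 KO member of 84 held a UMI at 10000 UMIs, which allows a share of up to 3.57%, against 32 of 449 WT members (7.13%). The limit is on cells with a UMI, not on cells that express the gene. Every WT, Dnmt3a KO and Dnmt3b KO library held it. Krt19, a keratin of simple epithelium, ranged from 24.9 to 133 CPM in WT and was 17.6, 23.0 and 13.3 CPM in Dnmt1 KO (log2 fold change -1.96 ± 0.40 SE, adjusted p = 0.00241). Sfn ranged from 64.6 to 147 CPM and was 54.3, 57.5 and 28.2 CPM (-1.14 ± 0.22, adjusted p = 0.00139), below WT in each embryo. Without Dnmt1 KO 3 the Sfn difference was -0.89 (adjusted p = 0.0220), and the calls of Krt19 (adjusted p = 0.0241 and 0.0253) and Tfap2b (0.0107 and 0.0184) were lost without Dnmt1 KO 1 or 3. Krt8 (325, 484 and 182 CPM against 396 to 959), Cldn6 (123, 90.01 and 92.8 against 114 to 275), Msx1 (257, 314 and 224 against 182 to 517) and Dlx5 (47.3, 41.2 and 37.4 against 36.1 to 70.9) overlapped WT.

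Preplacodal genes mark the ectoderm that will form lens, nose and ear. Of 17 tested in Dnmt1 KO, 16 had a negative log2 fold change (median -1.61, against 5531 of all 11030 genes), and 2 passed the test, both lower (background 1.59%, and 5 with DESeq2). Foxi2, a forkhead factor of cranial ectoderm, ranged from 2.78 to 10.9 CPM in WT and was 0.391, 0 and 0 CPM in Dnmt1 KO (adjusted p = 0.000323). Eya2, a cofactor of homeodomain factors in placodes, ranged from 4.50 to 8.04 CPM and was 3.52, 1.92 and 0.513 CPM (-1.61 ± 0.37, adjusted p = 0.00615). Its call was lost without Dnmt1 KO 2, Dnmt1 KO 3, WT 1 or WT 3 (adjusted p = 0.0104 to 0.0638) with the Y-linked covariate (0.144) and with DESeq2 (0.0107). The list median in the other cells of Dnmt1 KO embryos was -1.38. No placodal gene was called in Dnmt3a KO or Dnmt3b KO by either tool, with 5 and 1 at an unadjusted p under 0.05.

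Ligands of the BMP, Fgf and Wnt pathways and inhibitors that Fgf signalling induces were among the calls in Dnmt1 KO members. BMP ligands pattern the ectoderm towards epidermis, and 4 of the 14 tested genes of the BMP list were called lower, none higher (background 1.59% lower, list median -0.32). Bmp7 ranged from 24.6 to 37.5 CPM in WT and was 7.04, 6.70 and 9.74 CPM in Dnmt1 KO (-1.86 ± 0.23, adjusted p = 6.57e-06). Bmp2 ranged from 20.01 to 51.4 CPM and was 8.21, 5.75 and 7.69 CPM (-2.04 ± 0.29, adjusted p = 4.59e-05). For both, every Dnmt1 KO embryo lay far below every WT embryo. After thinning members to 3000 UMIs neither was called, with Bmp7 at -1.01 (adjusted p = 0.567) and Bmp2 at -2.18 (0.197). With all 5 markers asked for, Bmp2 was at -3.25 (adjusted p = 0.0428). Bmp4 overlapped WT by 1 embryo (18.4, 35.4 and 23.6 CPM against 31.9 to 81.0, -1.13 ± 0.24, adjusted p = 0.00362), and the secreted BMP antagonist Nog was 1.17, 1.92 and 1.03 CPM against 3.82 to 20.9 CPM (adjusted p = 0.00436). The Bmp4 call was lost without Dnmt1 KO 1 or 3 (adjusted p = 0.0250 to 0.0600) and that of Nog without any one Dnmt1 KO embryo (0.0130 to 0.0445) or with the Y-linked covariate (0.0189). The immediate BMP targets Id1, Id2, Id3 and Id4 were not called, with log2 fold changes of 0.16, -0.28, 0.32 and 0.25.

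Fgf signalling is read out by inhibitors that it induces itself. Of 15 genes tested, 4 were called lower (background 1.59%) and 1 higher (2.27%) in Dnmt1 KO (median -0.996). Spry1, one such inhibitor, ranged from 29.2 to 54.8 CPM in WT and was 7.04, 7.66 and 5.64 CPM (-2.58 ± 0.31, adjusted p = 5.76e-06). Dusp6, a phosphatase of ERK, ranged from 42.4 to 65.3 CPM and was 13.3, 22.02 and 12.3 CPM (-1.54 ± 0.18, adjusted p = 4.04e-06). Both were separated from WT in all 3 embryos, as was Spry2 (12.5, 13.4 and 10.8 CPM against 20.9 to 42.2, adjusted p = 0.00327) and the ligand Fgf17 (8.21, 14.4 and 6.67 CPM against 16.3 to 54.2, adjusted p = 0.00777). Fgfr1, a receptor, went the other way at 73.1, 63.2 and 99.5 CPM against 32.5 to 53.8 CPM (1.04 ± 0.15, adjusted p = 8.03e-05). The Spry2 call was lost without any one Dnmt1 KO embryo (adjusted p = 0.0123 to 0.0286), that of Fgf17 also without WT 1, 2 or 7 (0.0102 to 0.0693 over these 6 embryos). With the Y-linked covariate Spry2 had an adjusted p of 0.0261 and Fgfr1 one of 0.0112. Fgfr1 fell below 2-fold without Dnmt1 KO 3 or WT 1 (log2 fold changes of 0.80 and 0.98). After thinning members to 3000 UMIs its difference was 0.32 (adjusted p = 0.827). The calls of Spry1 (-2.56, adjusted p = 0.178) and Dusp6 (-1.33, 0.351) were lost after thinning members to 3000 UMIs. With all 5 markers they were lost too (-2.28, adjusted p = 0.0118, and -1.82, 0.0226). Other cells of the Dnmt1 KO embryos shared the direction for Spry1 (-1.94) and Dusp6 (-1.59).

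Of the 18 Wnt ligands and targets tested, 2 ligands were called lower in Dnmt1 KO (background 1.59%). Wnt7b ranged from 5.36 to 16.01 CPM in WT and was 1.56, 4.79 and 0.513 CPM (-2.31 ± 0.48, adjusted p = 0.00268). Wnt7a ranged from 5.95 to 25.02 CPM and was 1.17, 0.958 and 3.08 CPM (-2.64 ± 0.64, adjusted p = 0.00813). Both are ligands of the dorsal limb and body ectoderm. The Wnt7b call was lost without Dnmt1 KO 1 or 3 (adjusted p = 0.0320 and 0.0375) and with the rule on markers changed, at -1.12 (adjusted p = 0.122) when 3 sufficed and -3.47 (0.0263) when all 5 were asked for. The Wnt7a call was lost without any one of 7 embryos, Dnmt1 KO 1, 2 and 3, Dnmt3a KO 1 and WT 1, 2 and 5 (adjusted p = 0.0102 to 0.0821), and with the Y-linked covariate (0.0142). Axin2, Lef1 and Sp5, which respond to Wnt, had log2 fold changes of 0.59, 0.51 and -0.10 and were not called. No gene of the BMP, Fgf or Wnt lists was called by edgeR in Dnmt3a KO (6, 4 and 2 genes at an unadjusted p under 0.05) or Dnmt3b KO (3, 4 and 2), and DESeq2 called 1 Fgf list gene lower in Dnmt3b KO.

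Among the lower calls of smallest adjusted p in Dnmt1 KO were genes outside these lists. Pdgfa, a growth factor of surface epithelia, ranged from 375 to 591 CPM in WT and was 175, 149 and 144 CPM in Dnmt1 KO (-1.46 ± 0.15, adjusted p = 8.35e-07). Gas1, a Hedgehog co-receptor, ranged from 81.2 to 151 CPM and was 19.9, 16.3 and 11.8 CPM (-2.60 ± 0.28, adjusted p = 1.71e-06). Bhlha9, a helix-loop-helix factor of limb ectoderm, ranged from 31.0 to 111 CPM and was 4.30, 6.70 and 1.54 CPM (-4.19 ± 0.47, adjusted p = 2.52e-06). All 3 were separated from WT in every embryo, and in other cells they changed by -0.81, -1.79 and -3.67. Fabp5, a fatty acid carrier of epidermis, was 215, 247 and 269 CPM against 552 to 679 CPM (-1.17 ± 0.13), and Timp2 8.99, 8.62 and 7.69 CPM against 24.9 to 46.6 CPM (-2.06 ± 0.23).

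**Figure D3:**
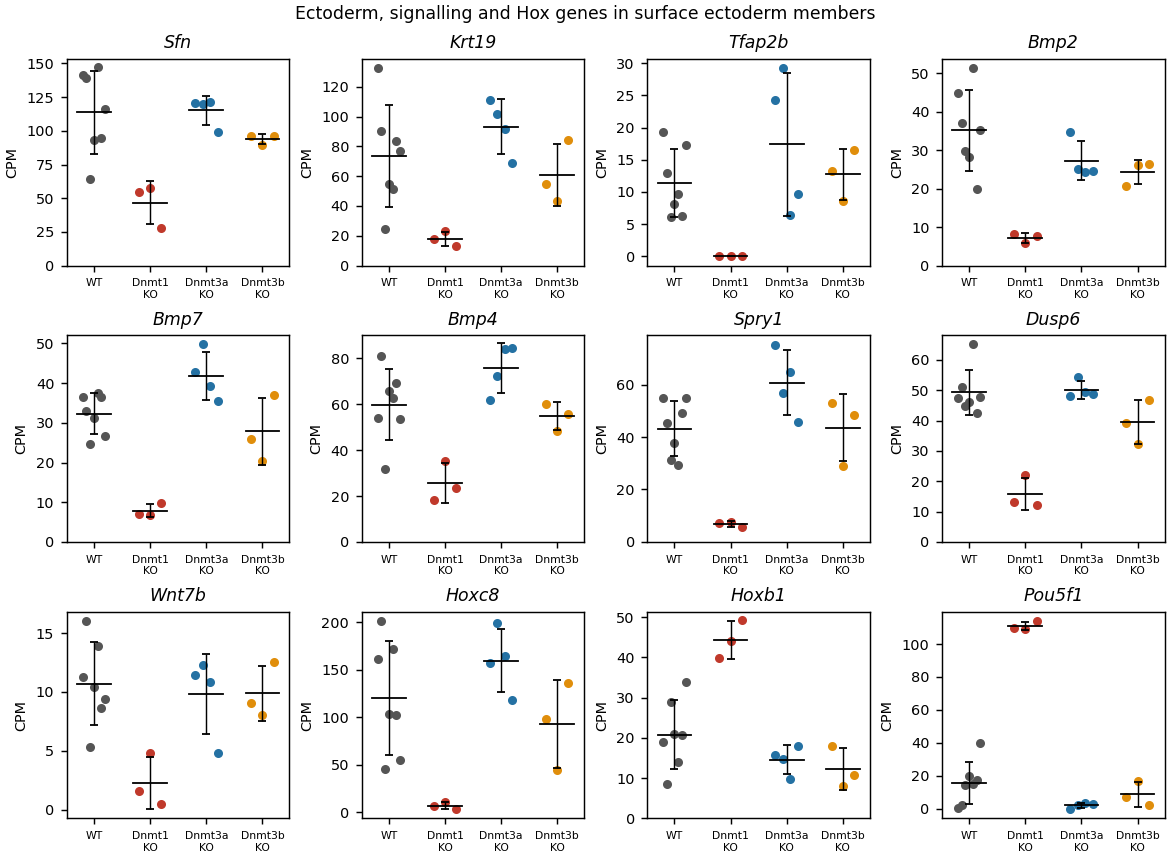
Level of 12 ectoderm, signalling and Hox genes in surface ectoderm members, in CPM on linear axes, each point 1 embryo, lines and bars the mean ± SD. Dnmt1 KO points (red) lie below WT for Bmp7 (6.70 to 9.74 against 24.6 to 37.5) and above it for Pou5f1 (109 to 114 against 0.85 to 40.1), while Dnmt3a KO and Dnmt3b KO points sit among or near the WT points.

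Genes of different positions along the body were found in different shares of the members. In WT, 14.7% of 449 members thinned to 10000 UMIs held an anterior factor (Otx2, Six3 or Pax6) and 47.0% a posterior Hox gene (Hoxc8, Hoxb9, Hoxa9 or Hoxc9), and 13 cells held both. In erythroid barcodes each anterior factor was found in 0.153% to 0.440% and each of the posterior genes in 0.555% to 1.21%. Sox2 was found in 85 of these cells and Hand1, an amnion and mesoderm factor, in 63, with 2 in common. For Sox2 and Hand1 the erythroid background was 0.995% and 1.82%.

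Of 26 Hox genes tested in Dnmt1 KO members, 2 were called lower (background 1.59%) and 2 higher (2.27%), with 20 negative (median -0.78), and DESeq2 called 6 lower and 2 higher. Hoxc8, of the trunk, ranged from 45.6 to 201 CPM in WT and was 6.25, 10.5 and 3.59 CPM (-4.09 ± 0.57, adjusted p = 4.10e-05). Hoxa9, also posterior, ranged from 18.5 to 76.03 CPM and was 0.391, 6.70 and 0 CPM (adjusted p = 0.00249), with the call lost without Dnmt1 KO 1 or 3 (0.0253 and 0.0355). At the other end of the clusters Hoxb1 was higher, at 39.9, 44.05 and 49.2 CPM against 8.503 to 33.8 (1.16 ± 0.28, adjusted p = 0.00867). Its call was lost without any one of 9 embryos or the averaged pair, the 3 Dnmt1 KO, Dnmt3a KO 13 and 14 and WT 1, 4, 5 and 6 among them (adjusted p = 0.0102 to 0.0702), and with the Y-linked covariate (0.101). The Hoxb1 difference was 0.51 (adjusted p = 0.294) when 3 markers sufficed and 1.655 (0.0395) when all 5 were asked for. Posterior Hox genes were found in 26.2% of the 84 Dnmt1 KO members. No Hox gene was called in Dnmt3a KO or Dnmt3b KO by either tool, with 7 and 5 at an unadjusted p under 0.05.

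Cdx1, a caudal factor, ranged from 18.5 to 120 CPM in WT and was 205, 276 and 200 CPM in Dnmt1 KO (1.77 ± 0.37, adjusted p = 0.00309). Its adjusted p was 0.0112 to 0.0198 without any one Dnmt1 KO embryo and 0.0579 with the Y-linked covariate, where the difference was 1.98. Pou5f1, the pluripotency factor of the epiblast, ranged from 0.85 to 40.1 CPM in WT (median 15.3) and was 110, 109 and 114 CPM in Dnmt1 KO (2.94 ± 0.50, adjusted p = 0.000408). After thinning to 10000 UMIs it was found in 55 of 84 Dnmt1 KO members (65.5%, 61.1% to 76.2% by embryo) and in 52 of 449 WT members (11.6%). The erythroid background pooled over all groups was 0.498%. Before thinning 7 of the 7622 erythroid barcodes came from Dnmt1 KO, so the background of those libraries was not measured. Dnmt3a KO (0 to 3.38 CPM) and Dnmt3b KO (2.44 to 17.1 CPM) overlapped WT. DESeq2 did not make this call (adjusted p = 0.0165). Of 11 epiblast and trophoblast genes that the study named from these samples and a published data set together, which are therefore no independent evidence, 10 were tested and 4 were called higher (background 2.27%), Pou5f1, Slc7a3, Trap1a and Xlr3a, and in Dnmt3b KO 1, Xlr3a (0.571%). Of the other 6, Rhox5, Apoe, Utf1 and Pim2 had log2 fold changes of 0.98 to 2.65 in Dnmt1 KO, and Krt8 (-0.99) and Ascl2 (-1.09) negative ones, none of them called. Trap1a was 23.1, 29.7 and 21.5 CPM against 1.70 to 8.06 in WT, and its call was lost without any one Dnmt1 KO embryo (adjusted p = 0.0174 to 0.0210). Slc7a3 was 17.98, 7.66 and 28.2 CPM against 4.38 to 7.87 in WT, overlapping it in 1 embryo, and had an adjusted p of 0.0440 with the Y-linked covariate.

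Of 6 neural crest markers tested in Dnmt1 KO, 2 were called lower (background 1.59%), and of 10 mesoderm markers 1 was called higher (2.27%). Pax3, of dorsal neural and crest cells, was 14.9, 14.4 and 20 CPM against 27.5 to 61.7 in WT (-1.30 ± 0.29, adjusted p = 0.00512), and Sox9, of crest and placodes, 12.1, 3.83 and 12.3 CPM against 13.9 to 89.4 (-2.12 ± 0.51, adjusted p = 0.00813). Prrx1, of mesenchyme, was 20.3, 6.70 and 26.1 CPM against 1.39 to 11.5 (2.15 ± 0.46, adjusted p = 0.00350). Pax3 was lost without any one Dnmt1 KO embryo (adjusted p = 0.0144 to 0.0546), Sox9 also without WT 1 or 7 (0.0121 to 0.0436) and Prrx1, which overlapped WT in 1 embryo, without Dnmt1 KO 1 or 3 (0.0268 and 0.0570). With the Y-linked covariate Sox9 (-2.28, adjusted p = 0.0518) and Prrx1 (1.97, 0.0781) were not called at differences of about the same size, and Prrx1 was lost with DESeq2 (0.0114). The summed neural crest markers ranged from 35.4 to 49.2 CPM in Dnmt1 KO and 70.9 to 199.8 CPM in WT. None of the endoderm (7 tested), endothelial (5), erythroid (7), cell cycle (15) or housekeeping (20) genes was called in any KO group by edgeR or DESeq2, and in Dnmt1 KO the numbers at an unadjusted p under 0.05 were 1, 2, 0, 8 and 5.

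Germline genes, which promoter methylation silences in the embryo after implantation, had higher summed levels in each of the 3 KO groups than in WT. Of 32 genes 17 passed the filter on low counts, which genes high in 1 KO group alone can pass, 6 of them with no WT count. The counts of called genes among these 17 are a description, since a gene that passed only through a KO group had to differ, and 15 of the 17 were called higher in Dnmt1 KO (background 2.27%), 14 in Dnmt3b KO (0.571%) and 2 in Dnmt3a KO (0.0816%), where DESeq2 called 5. For the same reason the adjusted p values of genes with no or few WT counts are a description, here and in the paragraphs that follow. Dazl, Sycp1, Fkbp6, Cyct, Trim5, Gm9, Rhox4e and Rhox9 are among them. The sum over all 32 ranged from 10.8 to 29.0 CPM in WT, 376 to 404 in Dnmt1 KO, 37.9 to 68.7 in Dnmt3a KO and 127 to 559 in Dnmt3b KO, with no overlap with WT in any group. In the other cells of the same embryos the sum was 24.9 to 35.6 CPM in WT, 460.9 to 532.8 in Dnmt1 KO, 59.2 to 101.1 in Dnmt3a KO and 153 to 737 in Dnmt3b KO. None of the 17 had a called difference in effect between members and other cells in any KO group.

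Rpl39l, a ribosomal protein of the male germline whose counts may be shared with its near-copy, had 0 to 3.50 CPM in WT. It was 153, 182 and 162 CPM in Dnmt1 KO (7.57 ± 0.44, adjusted p = 1.18e-10) and 56.0 and 123 CPM in Dnmt3b KO 11 and 12 with 32.9 and 32.4 in the averaged pair (6.19 ± 0.45, adjusted p = 2.93e-08). Fkbp6, needed for meiosis and piRNAs, had 0 to 0.591 CPM in WT, 17.9 to 30.5 in Dnmt1 KO, 8.64 to 17.3 in Dnmt3b KO and 0.676 to 4.22 in Dnmt3a KO. All of its KO libraries lay above WT. Dazl, an RNA-binding protein of germ cells, had no count in 462 WT members and 30.1, 28.7 and 26.7 CPM in Dnmt1 KO, at least 219.9-fold higher with a floor of 3 counts over the WT group (adjusted p = 0.000190). In Dnmt3b KO it was 22.9 and 123 CPM in embryos 11 and 12 and 3.70 and 5.58 CPM in the pair (at least 387.5-fold higher on the mean, adjusted p = 7.64e-05), and Dnmt3b KO 12 stood apart.

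The meiotic genes Sycp1, Syce1 and Hormad1 build the synaptonemal complex and the chromosome axis. Syce1 had no WT count and was 8.60, 7.66 and 6.15 CPM in Dnmt1 KO, 5.35 to 7.86 in Dnmt3b KO and 0.602 to 1.75 in Dnmt3a KO. Sycp1 was 7.18 to 12.45 CPM in Dnmt1 KO and 2.88 to 10.3 in Dnmt3b KO, against at most 0.5002 in WT, and overlapped WT in Dnmt3a KO (0 to 0.768). Tex19.1, which restrains retrotransposons, was 27.8, 15.3 and 29.7 CPM in Dnmt1 KO and 11.8 and 65.6 CPM in Dnmt3b KO 11 and 12, against at most 0.637 in WT. Tex15, by contrast, was already present in WT (1.79 to 5.50 CPM) and reached 21.5 to 37.3 CPM in Dnmt1 KO (3.13 ± 0.32, adjusted p = 7.96e-07). Its call in Dnmt3b KO (1.74 ± 0.32, adjusted p = 0.00365) was lost without Dnmt3b KO 11, Dnmt3b KO 12, WT 6 or WT 7 (0.0105 to 0.120). Ddx4, Asz1, Slc25a31, Mov10l1, Rpl10l and Tuba3a were the remaining germline genes called in both groups, and Gtsf1 was called in Dnmt1 KO alone of the 3. The Asz1 call in Dnmt3b KO was lost without Dnmt3b KO 12 (adjusted p = 0.0169).

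Cyct, the testis cytochrome c, was called in all 3 KO groups. It had 2 counts in WT members (at most 0.244 CPM) and was 39.5, 20.1 and 23.6 CPM in Dnmt1 KO, 4.397, 9.04, 5.62 and 2.30 CPM in Dnmt3a KO 1, 2, 13 and 14, and 8.72 to 35.3 CPM in Dnmt3b KO. No KO library overlapped WT, and the adjusted p values were 1.13e-08, 0.00214 and 7.56e-08, a description for a gene so rare in WT. With all 5 markers asked for, the Dnmt3a KO difference of Cyct went from 5.22 to 1.90 on the log2 scale (adjusted p = 0.713). Trim5, an antiviral factor gene, was different, at 28.5, 29.7 and 26.7 CPM in Dnmt1 KO and 0 to 0.110 CPM in every Dnmt3a KO and Dnmt3b KO library (adjusted p = 6.00e-11 in Dnmt1 KO).

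**Figure D4:**
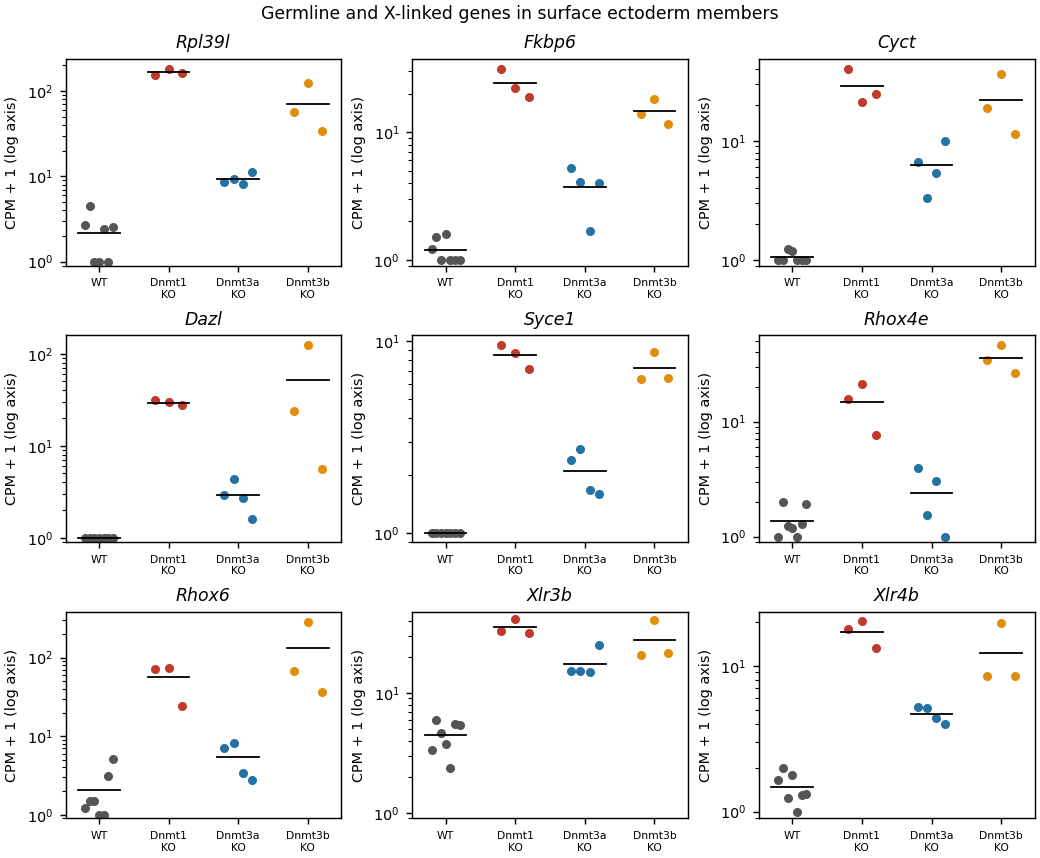
Level of 9 germline and X-linked genes in surface ectoderm members, as CPM + 1 on log axes, each point 1 embryo or the averaged pair Dnmt3b KO 1 and 2, and each line the mean. The WT points lie below those of every KO group for each gene but Rhox4e and Rhox6, where Dnmt3a KO overlaps WT, and Dnmt3b KO 12 is the highest point for Dazl (123 CPM) and Rhox6 (287 CPM).

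Genes of the X-linked Rhox homeobox cluster and the Xlr families, whose near-identical copies may share counts, were also higher. Rhox4e, whose promoter is given above, had 0 to 1 CPM in WT, 14.9, 20.1 and 6.67 CPM in Dnmt1 KO (5.24 ± 0.58, adjusted p = 2.52e-06), and 33.3 and 45.4 CPM in Dnmt3b KO 11 and 12 with 28.4 and 23.0 in the pair (6.49 ± 0.47, adjusted p = 2.93e-08). Rhox6, a placental member, had 0 to 4.07 CPM in WT, 70.4, 72.8 and 23.1 CPM in Dnmt1 KO and 67.0, 287, 42.4 and 28.6 CPM in Dnmt3b KO 11, 12, 1 and 2. Rhox9 reached 8.20 to 37.1 CPM in Dnmt1 KO and 8.72 to 211 CPM in Dnmt3b KO, against at most 1.501 in WT. In Dnmt3a KO the ranges of Rhox4e (0 to 2.99 CPM) and Rhox6 (1.81 to 7.13) overlapped WT. Gm9 was 7.43, 9.57 and 3.08 CPM in Dnmt1 KO and 6.58 to 17.1 CPM in Dnmt3b KO, against 1 count in all WT members. When 3 markers sufficed for membership, the calls of Rhox6 and Rhox9 were lost in Dnmt1 KO (adjusted p = 0.0307 and 0.107) and in Dnmt3b KO (0.108 and 0.172), as was that of Gm9 in Dnmt3b KO (0.0338). The Rhox4e calls were not lost there.

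Xlr3b, of a lymphocyte-regulated family, had 1.39 to 5.002 CPM in WT, 32.1, 40.2 and 30.8 CPM in Dnmt1 KO (3.40 ± 0.27), 13.9 to 24.1 CPM in Dnmt3a KO (2.12 ± 0.25, adjusted p = 0.000408) and 19.8 to 39.3 CPM in Dnmt3b KO (2.89 ± 0.25). Each KO library lay above each WT library. The Dnmt3a KO difference was 1.03 (adjusted p = 0.504) with all 5 markers. Xlr4b was 12.3 to 19.15, 3.01 to 4.22 and 5.93 to 18.6 CPM in the 3 groups, against 0 to 1 in WT. The remaining Dnmt3a KO calls were Hsf2bp (2.37 to 5.42 CPM against at most 0.597), Rec114 (1.21 to 4.92 against at most 0.5002), Syce1, Fkbp6, Cyct, Ldoc1 (51.2 to 83.2 against 14.9 to 35.5, 1.23 ± 0.18) and D630023F18Rik (0.602 to 6.86, overlapping 0 to 1.27). Hsf2bp and Rec114 act in meiotic recombination. With the Y-linked covariate Ldoc1 (adjusted p = 0.173), Fkbp6 (0.0131) and D630023F18Rik (0.0601) were not called. Without Dnmt3a KO 14 the adjusted p of Hsf2bp was 0.0108 and that of Ldoc1 0.0268, Xlr4b was lost without Dnmt3a KO 13 or 14 (0.0109 and 0.0185), and Fkbp6, Rec114, Syce1 and D630023F18Rik were lost without any one of 6, 12, 11 and 12 of the embryos (0.01004 to 0.0704).

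Genes called lower in Dnmt3b KO were 2, both without overlap with WT (background 0.0181% called lower, 1.01% without overlap). Both lie on chromosome 2, as does the targeted gene Dnmt3b, and a link to the targeted region was not tested. Ahcy, which clears the by-product of methyl transfer, ranged from 16.1 to 28.5 CPM in WT and was 7.32, 7.19, 6.58 and 5.58 CPM in Dnmt3b KO 11, 12, 1 and 2 (-1.66 ± 0.19, adjusted p = 7.64e-06). It was 9.64 to 13.8 CPM in Dnmt3a KO and 19.15 to 23.07 CPM in Dnmt1 KO. Gm14226 had 117 counts in WT members (0.5002 to 9.56 CPM) and none in Dnmt3b KO members, at least 18.02-fold lower with a floor of 3 counts over the group, the averaged pair taken as 1 sample (adjusted p = 0.00182). That call was lost without Dnmt3b KO 11 or 12 (adjusted p = 0.0155 and 0.0184) and with the Y-linked covariate (0.0138). The Ahcy difference was -0.77 (adjusted p = 0.567) with all 5 markers. In other cells Ahcy changed by -1.51.

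Imprinted genes, expressed from 1 parental copy under the control of methylated regions, moved both ways in Dnmt1 KO, with 6 of 34 tested higher (background 2.27%) and 7 lower (1.59%). Grb10, a growth-factor adaptor, ranged from 194 to 253 CPM in WT and was 1.56, 0.958 and 0.513 CPM (-7.46 ± 0.23, adjusted p = 1.95e-15), the smallest adjusted p of all genes. Cdkn1c, a cell cycle inhibitor, ranged from 40.3 to 131 CPM and was 5.86, 1.92 and 2.56 CPM (-4.16 ± 0.42). Igf2, a growth factor, was 0, 0 and 0.513 CPM against 7.07 to 13 CPM, and its receptor Igf2r 27.4, 29.7 and 21.5 CPM against 57.3 to 100.1 CPM. Peg3 rose to 876, 1278 and 819 CPM from 353 to 562 CPM (1.24 ± 0.13, adjusted p = 1.25e-06), and Plagl1 to 26.6, 33.5 and 35.9 CPM from 4.48 to 19.01 CPM (1.98 ± 0.34, adjusted p = 0.000477), the latter not called with the Y-linked covariate (0.0268). Dlk1, Zdbf2 and Zim1 made up the other lower calls, Zdbf2 being lost without any one Dnmt1 KO embryo (0.0145 to 0.0341) and Zim1 without Dnmt1 KO 1 or 3 (0.0141 and 0.0248). Impact, Mirg, Mcts2 and Peg10 were the other higher calls. With the Y-linked covariate Mirg (0.0417) and Peg10 (0.114) were lost and Mcts2 was under 2-fold (0.95 on the log2 scale), and Peg10, which overlapped WT in 1 embryo or more, was lost without Dnmt1 KO 2 (0.0371). None of the 34 was called in Dnmt3a KO or Dnmt3b KO by either tool, with 12 and 7 at an unadjusted p under 0.05.

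Targets of p53, which halt the cycle or promote cell death after damage, were higher in Dnmt1 KO for 6 of 11 tested (median 1.33, background 2.27%), with none called in the other KO groups by either tool (1 in Dnmt3a KO and 2 in Dnmt3b KO at an unadjusted p under 0.05). Trp53inp1 ranged from 0.896 to 2.95 CPM in WT and was 14.5, 22.02 and 17.95 CPM (3.09 ± 0.37, adjusted p = 5.76e-06). Ccng1 ranged from 11.3 to 23.01 CPM and was 80.1, 81.4 and 54.9 CPM (2.30 ± 0.35, adjusted p = 9.68e-05), with Dnmt3b KO 12 at 75.5 CPM and the other Dnmt3b KO libraries at 13.9 to 27.9. Phlda3, Pmaip1, Sesn2 and Eda2r were the other 4, while Mdm2 (-0.30), Bax (0.57) and Cdkn1a (1.08) were not called. Pmaip1 was lost without Dnmt1 KO 3 (adjusted p = 0.0109), Sesn2 without Dnmt1 KO 1 or 3 (0.0286 and 0.0391) and Eda2r without any one of 7 embryos (0.0105 to 0.0702) and with the Y-linked covariate (0.0217). Phlda3 and Eda2r overlapped WT in at least 1 embryo. The list median in other cells was 1.59.

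Whether an effect differs between members and the other cells was tested in the same embryos. The filter on low counts used the members alone, so a gene near 0 in members of every group was not tested. In Dnmt1 KO 269 genes differed (2.44%), 146 with the higher log2 fold change in members (1.32%) and 123 with the lower (1.12%). Without Dnmt1 KO 1 these were 63 and 60, without Dnmt1 KO 2 they were 71 and 83, and the lower also outnumbered the higher without WT 3 (162 and 184) and with no filter on low counts (183 and 209). Wnt7b fell by 2.31 in members and rose by 3.60 in other cells (difference -5.64 ± 0.31, adjusted p = 9.10e-10), its level in other cells going from 0.766 ± 0.315 to 8.91 ± 8.21 CPM. Sfn likewise had -1.14 in members and 1.58 in other cells (difference -2.37 ± 0.27, adjusted p = 2.09e-05), and the connexin gene Gjb5 a difference of -3.07 ± 0.34. AU018091, 3830417A13Rik and Nfxl1 had differences of -4.26, -4.11 and -1.32. These genes rose in the other cells of Dnmt1 KO embryos, where the trophoblast marker sum was 266 to 665 CPM against 142 to 193 CPM in WT, and the part of trophoblast cells in the difference was not tested. The barcodes of Dnmt1 KO embryos set aside for Elf5 or Foxa2 held 34.3 ± 31.5 CPM of Wnt7b and 70.6 ± 58.0 CPM of Gjb5, against 2.29 ± 2.23 and 12.6 ± 6.76 CPM in members.

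In the opposite direction, Alpl, an alkaline phosphatase of stem and germ cells, rose in members from 11.5 to 23.6 CPM in WT to 37.5, 39.3 and 39.5 CPM in Dnmt1 KO and had -0.37 in other cells (difference 1.82 ± 0.19, adjusted p = 1.33e-05). Cdx1 had a difference of 2.21 ± 0.24 (adjusted p = 1.585e-05), and Xlr4b, Lpar4, Foxp1 and Klf3 of 3.497, 1.52, 1.28 and 1.52. Of these Lpar4 and Klf3 were not called in members against WT (0.94 and 0.74), and Foxp1 was under 2-fold there without Dnmt1 KO 3 (0.91). Bmp2 (difference -2.62) also differed between the cell sets. In Dnmt3b KO 9 genes differed (0.0816%), each higher in members. With the filter on members alone a gene that rose only in other cells could be missed, so the shared direction is a description. Rhox6 changed by 6.87 in members and 1.74 in other cells (difference 5.02 ± 0.50, adjusted p = 2.70e-05), where WT already held 10.7 ± 2.28 CPM against 1.05 ± 1.51 in members. Xlr4b (3.55), Xlr5a (6.04), Xlr3a (3.25), Xlr4a (3.04) and Mageb16 (2.52), all on the X, had the next smallest adjusted p values. In WT members Xlr5a had 1 count, Xlr4b 12, Xlr4a 13, Mageb16 22 and Xlr3a 24. Without Dnmt3b KO 12 the Mageb16 difference was 2.38 (adjusted p = 0.0172). For Dnmt3a KO no difference was called by edgeR at the adjusted threshold, with 869 genes at an unadjusted p under 0.05.

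**Figure D5:**
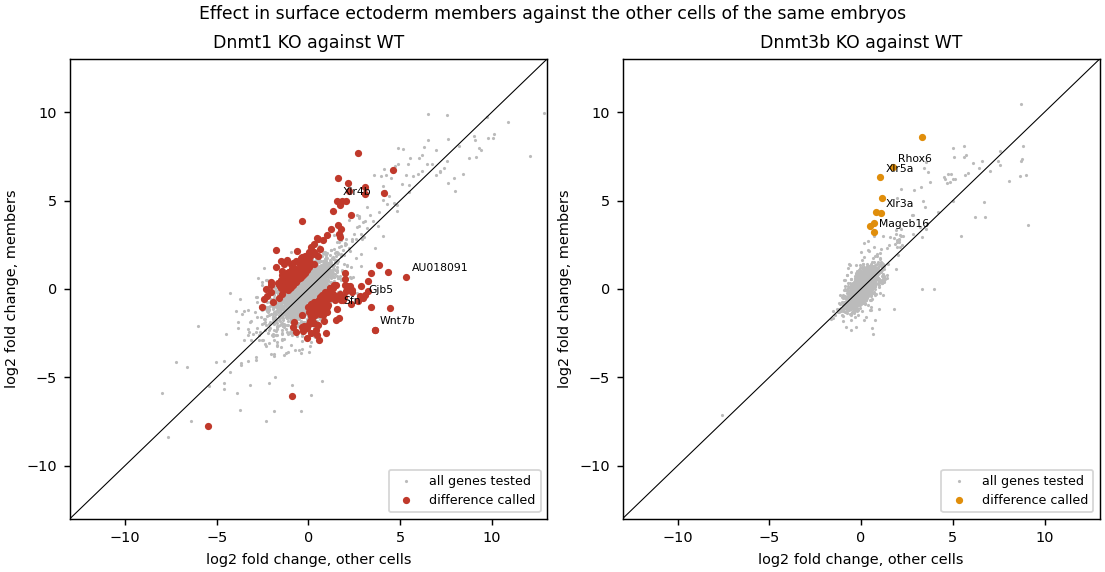
log2 fold change against WT in the other cells (x axis) and in surface ectoderm members (y axis), grey for all 11030 genes tested and coloured where the difference was called, with the line of equal change. In Dnmt1 KO (left) coloured points lie on both sides of the line, Wnt7b far below it (3.60, -2.31), and in Dnmt3b KO (right) the 9 coloured points lie above it. Genes were filtered on member counts alone, so that side is a description.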

How the data were processed

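Single-cell 3′ RNA-seq was available for 18 libraries of single E8.5 embryos. The deposited matrices held UMI counts per gene and barcode that the authors had made with Cell Ranger, version 3.1.0 by the file headers for 17 libraries and 5.0.0 for 1 (Dnmt3b KO 12), on mm10. WT 1, Dnmt3a KO 1 and 13 and Dnmt3b KO 11 had been aligned to a combined human and mouse reference, of which the mouse genes alone were used. Samples were grouped by the genotype in their labels. No cell annotation was used, so members were defined by counts of 7 genes, and these 7 were left out of all tests. The members, the gene lists and the tests were chosen with earlier results of these data known.

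UMI counts were summed over the members of each embryo (719537 to 9115577 UMIs), the averages of Dnmt3b KO 1 and 2 rounded to whole counts, and tested with edgeR 4.0.16 (glmQLFTest, TMM, filterByExpr, 4 groups in 1 model) in R 4.3.3, with Benjamini-Hochberg adjustment over 11030 genes. The difference between members and all other barcodes was tested as an interaction with the embryo as block. DESeq2 1.42.0, other filters, other member rules, a Y-linked covariate, a replicate block and leaving out each embryo were the alternatives. On simulated counts over 10822 genes edgeR recovered 83%, 94% and 93% of 4-fold changes and 36%, 43% and 41% of 2-fold changes in the Dnmt1, Dnmt3a and Dnmt3b comparisons. Doublets, marked with scanpy 1.11.5, were kept and their removal was an alternative. Shares were compared with a two-sided exact permutation test over embryos, adjusted over the 3 comparisons. Nothing in the labels ties embryos to litters.

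Genes named are those of the member rule, the 3 targeted genes, the 10 higher and 10 lower calls of smallest adjusted p without overlap per KO group, the 6 genes of highest WT level and every called gene of each list, and the 6 genes of smallest adjusted p per direction in the interaction, with a selection of them described. Names outside the rule were chosen after their values were seen. Promoter sequences are from RefSeq (GRCm38.p6), the build of the files. Rian and Peg13 of the imprinted list were not found by symbol, and Hoxd4, whose symbol has 2 identifiers, was left out. Intervals and limits from a count of 0 cover counting error only. Some results are not reported here.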

Additional observations from a re-analysis of the deposited data

Results flagged for a closer look

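In groups of 4 to 7 embryos, 26 of 232 gene and group combinations had 1 embryo far from the rest by Dixon's criterion, and chance gives about 1 in 20. WT 5 stood high for Dusp6 (65.3 CPM), Phlda3 (259.9), Eda2r (5.56), Cdx2 (254.3) and Gjb5 (43.1). WT 3 stood low for Igf2r (57.3 CPM) and WT 2 for Eya2 (4.502). Of genes near 0 in WT, Sycp1 (0.5002 CPM, WT 2), Trim5 (0.197, WT 4), Gm9 (0.244, WT 3), Xlr5a and Mov10l1 (0.2125 each, WT 1) were found in 1 WT embryo each. Slc25a31 (2.001 CPM) and Rhox9 (1.501) stood high in WT 2 and D630023F18Rik (1.27) in WT 1, with lower levels in other WT embryos. WT 1 stood apart for 3830417A13Rik at 21.25 CPM.

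Among Dnmt3a KO embryos, number 2 stood apart for Sfn (98.8 CPM), Nog (4.82), Bax (197.6), Xlr3b (24.1) and Cdx1 (74.1). Number 14 stood apart for Grb10 (268.9 CPM), Foxp1 (66.9), Trim5 (0.110) and Tuba3a (0.219), and number 13 for Bmp2 (34.8). Dnmt3a KO 2 also had the lowest member share of its group.

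The effect of Dnmt1 loss in members minus its effect in the other cells, tested as an interaction in edgeR on the log2 scale, was 1.82 for Alpl, 2.21 for Cdx1, 3.497 for Xlr4b, 1.52 for Lpar4, 1.28 for Foxp1 and 1.52 for Klf3. It was negative for Wnt7b (-5.64), AU018091 (-4.26), 3830417A13Rik (-4.11), Nfxl1 (-1.32), Gjb5 (-3.07) and Sfn (-2.37). For Dnmt3b loss it was 5.02 for Rhox6, 3.55 for Xlr4b, 6.04 for Xlr5a, 3.25 for Xlr3a, 3.04 for Xlr4a and 2.52 for Mageb16.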

How the results depend on the processing

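The number of genes called moved with the rule and the depth. In Dnmt1 KO, 425 calls became 689 with no filter on low counts, 795 when 3 markers sufficed, 98 when all 5 were asked for and 24 after thinning members to 3000 UMIs. In Dnmt3b KO, 65 calls became 151, 106, 16 and 2 under these settings, and 25 without Dnmt3b KO 11 and 12, which leaves the averaged pair as 1 sample that is assumed to vary like the other groups. In Dnmt3a KO, 9 calls became 74, 21, 0 (554 genes at an unadjusted p under 0.05) and 2, and were 27 with DESeq2 and 17 with the Y-linked covariate. None of the 9 Dnmt3a KO calls was among those left with all 5 markers, after thinning or with the replicate block. Of the 15 germline genes called higher in Dnmt1 KO, 6 kept the call with all 5 markers, 1 after thinning and 15 with the block. Of the 14 in Dnmt3b KO, 5, 1 and 4 did. Leaving out 1 embryo, or the pair Dnmt3b KO 1 and 2 together, gave 291 to 472 calls in Dnmt1 KO, 44 (without Dnmt3b KO 12) to 87 in Dnmt3b KO and 3 (without Dnmt3a KO 14) to 19 (without Dnmt3b KO 12) in Dnmt3a KO, with 17 without the pair. Differences between members and other cells in Dnmt1 KO went from 269 to 12 after thinning and ranged from 123 (without Dnmt1 KO 1) to 362 without 1 embryo, with 154 without Dnmt1 KO 2. In Dnmt3b KO they went from 9 to 1 after thinning and ranged from 5 (without Dnmt3b KO 12) to 9. In Dnmt3a KO they went from 0 to 7 with no filter and ranged from 0 to 2. The member shares did not pass the test in any setting, and the sign of their log2 differences turned between settings. In Dnmt1 KO, 0.38 on 3 cells, with 0.5 cell added in each library, became -0.15 with no thinning, -1.03 and -1.60 after thinning to 10000 and 5000 UMIs and -1.19 when 3 markers sufficed. The Dnmt3a KO difference, -0.65 although its mean share was above that of WT, became 0.18 after thinning to 10000 UMIs, and that of Dnmt3b KO -0.36 after thinning to 5000. With all 5 markers at most 1 cell was left in a group, so the sign there says nothing. Without 1 embryo they ranged from 0.0947 to 0.616 in Dnmt1 KO, -1.38 to 0.233 in Dnmt3a KO and -0.0731 to 0.629 in Dnmt3b KO. Of 127 calls of named genes in members, 42 were kept and 38 lost with all 5 markers, where the genes of the other 47 did not pass the filter on low counts, and 18 were lost when 3 markers sufficed. After thinning members to 3000 UMIs 13 were kept and 25 lost, and the genes of 89 were not tested. With the replicate block 34 were lost, and with the Y-linked covariate 21. No named call changed direction in a setting where its gene was tested. Replicate numbers were not taken as a pairing. Same-numbered embryos of different groups had correlations of -0.164 to 0.215 between their deviations from group means, which cannot exclude a shared litter or batch. The same-numbered WT embryo was the closest WT embryo for Dnmt1 KO 3, Dnmt3a KO 1 and Dnmt3b KO 2. It was not for Dnmt1 KO 1 and 2, Dnmt3a KO 2 and Dnmt3b KO 1. With the replicate number as a block, Dnmt1 KO had 409 calls (324 of the 425), Dnmt3a KO 1 (0 of the 9) and Dnmt3b KO 21 (15 of the 65). The causes of these changes were not tested.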

Other observations

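Marker lists of tissues next to the surface ectoderm were tested in the same way. Of 8 amnion genes tested in Dnmt1 KO, 1 was called, Bmp4 (lower, list median -0.59), and of 8 neural plate markers 1, Pax3 (lower, median -0.91), against 1.59% of all genes called lower. Of 9 trophoblast markers 2 were called higher in Dnmt1 KO (median -0.13, 2.27% of all genes) and 2 in Dnmt3b KO (median 0.43, 0.571%), in both cases Rhox6 and Rhox9, whose calls were lost when 3 markers sufficed. In the comparison of the Dnmt1 effect between members and other cells, 5 of 26 Hox genes, 3 of 18 Wnt genes and 2 of 17 placodal genes had the higher log2 fold change in members (1.32% of all genes), while 12 of 37 epidermal genes had the lower (1.12%). The other cells hold every other cell type of the embryo, and their makeup differed between groups, with 7 erythroid barcodes in the 3 Dnmt1 KO libraries against 2414 in the 4 of Dnmt3a KO.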
